A study of Mus musculus with 14 samples.

Results

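Elf5, Kit, Foxi1, Sox10 and Tfap2c, genes linked to luminal progenitor or alveolar cells, were followed across sorted mammary populations of the mouse. They were chosen by name, with earlier results of these data known. Each of the 5 genes was read from every probe set that names it alone. These were 8 of the 9645 probe sets, or 5 of the 6044 named genes, in the expression table. RNA came from mammary glands of virgin female C57BL/6 mice aged 6 to 8 weeks, dissociated with enzymes, stained for the epithelial surface markers in the population names and for blood and endothelial markers (CD45, Ter119, CD31), and sorted in 2 rounds. The luminal populations were CD24medCD49f-/low cells (2 arrays, labelled differentiated luminal) and CD24highCD49fmed cells (3 arrays, labelled luminal progenitor). The basal populations, with 3 arrays each, were Thy-1+CD24medCD49fhigh cells (labelled stem cells), Thy-1-CD24medCD49fhigh cells (labelled progenitor cells) and CD24medCD49fmed cells (labelled myoepithelial). The mice carried no transgene or treatment according to the labels.

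The mammary epithelium has an outer basal layer and an inner luminal layer, and the luminal layer holds hormone-sensing cells and progenitors of milk-making alveolar cells. Elf5, an ETS transcription factor, drives alveolar differentiation. Kit is the receptor tyrosine kinase for stem cell factor and is widely used to mark luminal progenitors. Foxi1 is a forkhead factor known from acid-secreting cells of kidney and inner ear. Sox10 is a SOX factor of neural crest and glia that is also made in mammary progenitors, and Tfap2c is an AP-2 factor of mammary and skin epithelium.

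Values are log2 and centred on the mean of the 14 arrays for each probe set, so a difference between populations can be read but a level cannot be compared between genes. Among marker genes, 10 of 10 luminal markers were higher and 11 of 11 measured basal markers were lower in luminal than in basal arrays by limma at an adjusted p under 0.05. Of all rows 27.7% were called higher and 17.4% lower in that comparison. The median of all rows was between -0.15 and 0.28 in 12 arrays, but -0.74 in Thy-1+CD24medCD49fhigh replicate 1 and -0.51 in replicate 3. These 2 arrays enter every basal level below. Nothing states that replicates came from separate animals, so p-values measure the spread between these samples only. In sorted bulk RNA, fewer cells of a type and less RNA per cell cannot be told apart.

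Elf5, Kit and Foxi1 had the same order of populations at the top, whereas Sox10 and Tfap2c did not. Only the first 3 genes had their highest means in the luminal populations. The promoter set used, from RefSeq (GRCm38.p6), held no entry for Sox10 or Tfap2c. It held promoters of Elf5, Kit and Foxi1, shown here. Each is the 250 bases before the annotated start, on the strand of the gene, at chr2:103411848-103412097 (+) for Elf5, chr5:75574737-75574986 (+) for Kit and chr11:34208090-34208339 (-) for Foxi1. Capitals mark matches on either strand to 4 letter patterns, AGGAAG (ETS), TGTTTAC (forkhead), ACAATG (SOX) and GCCNNNGGC (AP-2), and no match overlapped another.
Elf5: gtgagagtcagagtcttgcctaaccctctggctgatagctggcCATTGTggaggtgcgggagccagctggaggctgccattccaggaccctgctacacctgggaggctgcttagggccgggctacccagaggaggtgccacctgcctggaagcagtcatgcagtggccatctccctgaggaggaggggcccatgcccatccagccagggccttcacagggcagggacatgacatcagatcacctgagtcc
Kit: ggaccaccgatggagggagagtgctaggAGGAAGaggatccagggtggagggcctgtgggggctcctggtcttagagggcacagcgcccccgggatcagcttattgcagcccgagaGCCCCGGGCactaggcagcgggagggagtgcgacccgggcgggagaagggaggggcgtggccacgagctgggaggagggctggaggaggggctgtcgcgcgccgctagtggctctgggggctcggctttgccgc
Foxi1: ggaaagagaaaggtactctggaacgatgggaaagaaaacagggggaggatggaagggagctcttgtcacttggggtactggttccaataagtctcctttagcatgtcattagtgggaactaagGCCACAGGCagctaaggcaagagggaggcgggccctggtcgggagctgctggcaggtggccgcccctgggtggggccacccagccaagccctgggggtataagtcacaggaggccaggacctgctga
The Elf5 stretch held 1 SOX match on the opposite strand, starting at -207. Kit held 1 ETS match at -222 and 1 AP-2 match at -134. Foxi1 held 1 AP-2 match at -127, and a second one lay 37 bases past the start. Another annotated Elf5 start, whose promoter begins at chr2:103423818, held none, and another Kit start overlapped the one shown. Over 32851 RefSeq promoters of 300 bases, 35.4% held the ETS letters, 3.65% the forkhead, 12.6% the SOX and 16.6% the AP-2 letters. A match is a run of letters and not a measured binding site.

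**Figure D1:**
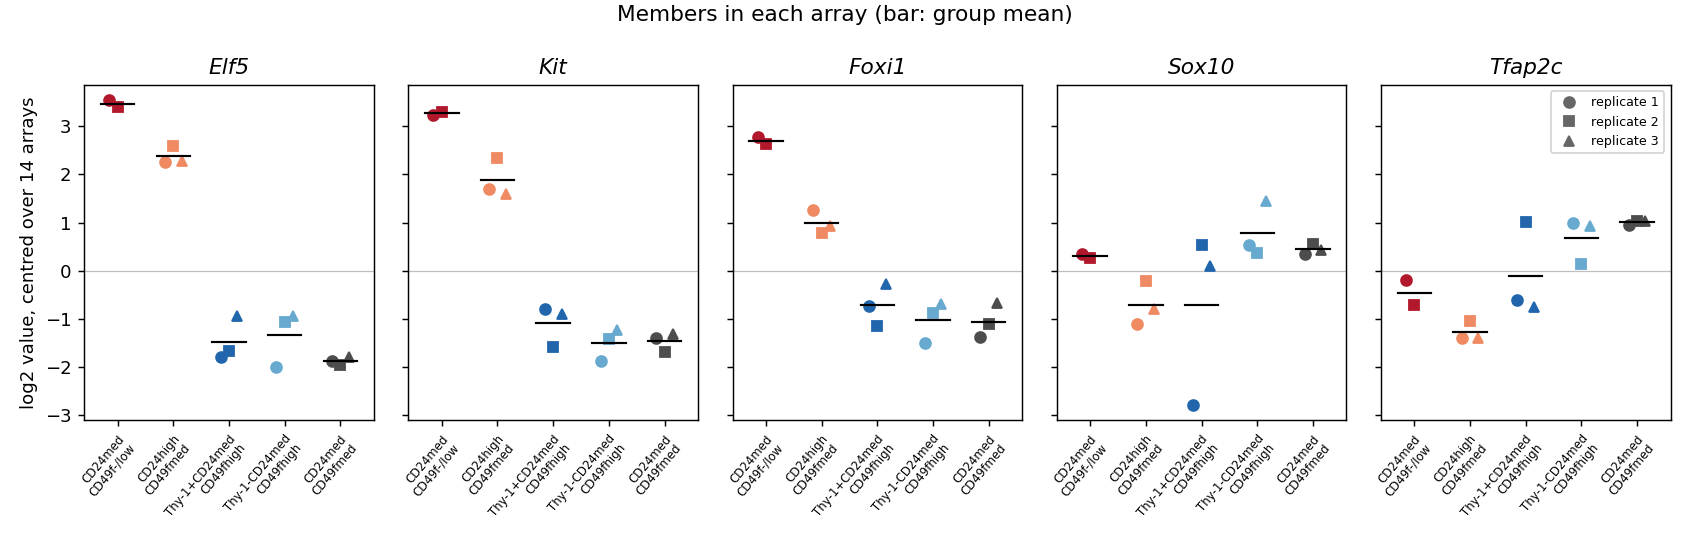
Centred log2 value (y axis) of each gene in the 14 arrays, by population (x axis), with luminal populations left of basal ones. Points are arrays, shapes are replicate numbers and bars are group means. Elf5, Kit and Foxi1 sat highest in CD24medCD49f-/low cells, next in CD24highCD49fmed cells and lowest in all 9 basal arrays, while 1 basal array of Sox10 lay at -2.79.

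The luminal populations were compared first. Elf5, Kit and Foxi1 were higher in CD24medCD49f-/low than in CD24highCD49fmed cells, 2.13-fold, 2.62-fold and 3.26-fold, although the labels give the progenitor name to CD24highCD49fmed cells. Sox10 and Tfap2c lay in the same direction and did not pass the threshold. All 5 genes had no overlap between the arrays of the 2 populations, as did 15.2% of all 7190 rows in the same direction. By limma's adjusted p under 0.05, 3 of the 5 genes were called higher and none lower, against 2.57% of all rows called higher. Elf5, Kit, Foxi1 and Sox10 also stand on the study's own list of genes for CD24medCD49f-/low cells, which was drawn from these arrays, so their direction is not independent evidence.

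Foxi1 had centred log2 values of 2.77 and 2.63 in the CD24medCD49f-/low arrays, against 1.26, 0.79 and 0.93 in the CD24highCD49fmed arrays. Both CD24medCD49f-/low arrays were more than 1 log2 above the highest CD24highCD49fmed array. The difference was 1.70 (SE 0.20, limma adjusted p = 0.0113), the 16th largest rise of 7190 rows.

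Kit stood at 3.24 and 3.30 in the CD24medCD49f-/low arrays, against 1.70, 2.34 and 1.60 in the CD24highCD49fmed arrays. The CD24medCD49f-/low arrays nearly coincided, and CD24highCD49fmed replicate 2 was the nearest to them. The difference was 1.39 (SE 0.25, limma adjusted p = 0.0222), with 1.46 and 1.32 on its 2 probe sets.

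Elf5 stood at 3.54 and 3.39 in the CD24medCD49f-/low arrays, against 2.26, 2.58 and 2.28 in the CD24highCD49fmed arrays. The lowest CD24medCD49f-/low array was well above the highest CD24highCD49fmed array. The difference was 1.09 (SE 0.19, limma adjusted p = 0.0219), with 1.27 and 0.92 on its 2 probe sets.

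Sox10 stood at 0.34 and 0.27 in the CD24medCD49f-/low arrays, against -1.11, -0.22 and -0.79 in the CD24highCD49fmed arrays. The groups did not overlap, but the CD24highCD49fmed arrays were spread over 0.89. The difference of 1.01 (SE 0.26, 95% interval 0.41 to 1.61) missed the threshold (limma adjusted p = 0.06). Tfap2c stood at -0.20 and -0.72 in the CD24medCD49f-/low arrays, against -1.40, -1.04 and -1.39 in the CD24highCD49fmed arrays. Here the CD24medCD49f-/low replicates were 0.52 apart, more than the 3 CD24highCD49fmed arrays were. The difference of 0.82 (SE 0.22, 95% interval 0.30 to 1.33) did not pass either (limma adjusted p = 0.0676).

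The calls for Elf5, Kit and Foxi1 depended on single arrays. Without CD24medCD49f-/low replicate 1 no row was called (limma adjusted p = 0.227 for Elf5, 0.181 for Kit and 0.103 for Foxi1), and 770 rows had an unadjusted p under 0.05. Without CD24highCD49fmed replicate 3 only 3 rows were called and none was one of the 5 genes (limma adjusted p = 0.0935, 0.0935 and 0.0615). A fit on all 14 arrays gave the same differences with larger errors and called 4 rows, again none of the 5 genes.

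Myeloid marker genes moved with this comparison. The median of 7 measured of 15 listed myeloid markers was 1.67 and 0.22 in the CD24medCD49f-/low arrays, against -0.69, -0.72 and -0.59 in the CD24highCD49fmed arrays, and S100a9 (3.36, SE 0.66, limma adjusted p = 0.0296) and Laptm5 (2.08, SE 0.36, limma adjusted p = 0.0219) were higher. Kit, Elf5 and Foxi1 differed by 0.06 to 0.15 between the same 2 arrays, in which the myeloid medians lay 1.45 apart. Col3a1, a fibroblast collagen gene, was higher as well (2.22, SE 0.45, limma adjusted p = 0.0318), with 7 of 10 listed fibroblast markers measured. Staining for CD45, which marks blood cells, can remove myeloid cells, and the study's antibodies also included one against CD140α, the product of Pdgfra and a fibroblast marker. That stained cells were gated out is not stated in so many words in the sources used. Kit is also made by mast cells and melanocytes, but 0 of 11 mast cell markers and 1 of 8 melanocyte markers (Mitf, 0.10, SE 0.19) were in the rows analysed here. The part of these other cells in the differences was not tested.

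**Figure D2:**
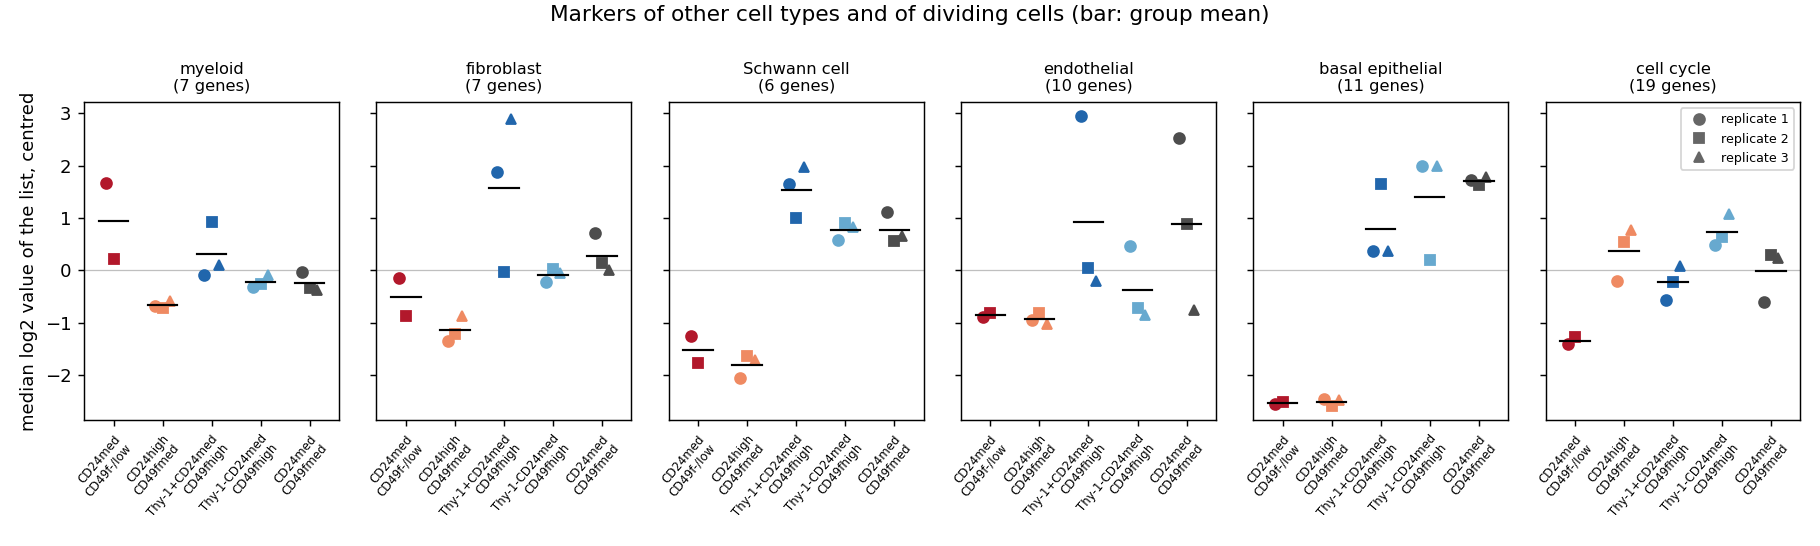
Median centred log2 value (y axis) of marker lists of other cell types, of basal cells and of dividing cells in each array, by population (x axis). Points are arrays, shapes are replicate numbers and bars are means of the array medians. The myeloid median was highest in CD24medCD49f-/low replicate 1 (1.67), and the endothelial median was highest in Thy-1+CD24medCD49fhigh replicate 1 (2.94).

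The luminal populations were next set against the basal level, the mean of the 3 basal populations. CD24medCD49f-/low cells exceeded it by 5.02 for Elf5 (32.6-fold), 4.62 for Kit (24.7-fold) and 3.63 for Foxi1 (12.4-fold). CD24highCD49fmed cells exceeded it by 3.93 for Elf5 (15.3-fold), 3.23 for Kit (9.41-fold) and 1.93 for Foxi1 (3.80-fold). Tfap2c went the other way and was 3.49-fold lower in CD24highCD49fmed cells than the basal level, and Sox10 showed no called difference.

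Elf5 ranged from 2.26 to 3.54 in the 5 luminal arrays (median 2.58), against -2.0 to -0.95 in the 9 basal arrays (median -1.79). The gap between the lowest luminal and the highest basal array was wider than the spread within either side. Over the basal level, Elf5 had the 2nd largest rise of 7190 rows in CD24medCD49f-/low cells (5.02, SE 0.44, limma adjusted p = 5.68e-07). In CD24highCD49fmed cells it ranked 15th (3.93, SE 0.35, limma adjusted p = 2.18e-07).

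Kit ranged from 1.60 to 3.30 in the luminal arrays (median 2.34), against -1.88 to -0.80 in the basal arrays (median -1.40). No luminal array came near a basal one. The rise ranked 5th in CD24medCD49f-/low cells (4.62, SE 0.42, limma adjusted p = 6.73e-07) and 53rd in CD24highCD49fmed cells (3.23, SE 0.34, limma adjusted p = 1.64e-06).

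Foxi1 ranged from 0.79 to 2.77 in the luminal arrays (median 1.26), against -1.51 to -0.27 in the basal arrays (median -0.88). The groups did not overlap, but the CD24highCD49fmed arrays lay about midway between the CD24medCD49f-/low and the basal arrays. The rise was 3.63 (SE 0.43, limma adjusted p = 1.52e-05) in CD24medCD49f-/low cells and 1.93 (SE 0.35, limma adjusted p = 0.00031) in CD24highCD49fmed cells.

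Tfap2c was lowest in luminal cells. Its luminal arrays ran from -1.40 to -0.20 (median -1.04), against -0.75 to 1.04 in the basal arrays (median 0.95). Luminal and basal arrays overlapped because Thy-1+CD24medCD49fhigh replicates 1 and 3 stood at -0.60 and -0.75, and replicate 2 at 1.02. Tfap2c fell by 1.80 in CD24highCD49fmed cells relative to the basal level (SE 0.39, limma adjusted p = 0.00139). The difference in CD24medCD49f-/low cells was -0.99 (SE 0.49, 95% interval -2.01 to 0.03) and was not called (limma adjusted p = 0.184). It passed after median centring of the arrays (-1.18, limma adjusted p = 0.045). It also passed without the 2 low-median basal arrays (-1.37, limma adjusted p = 0.00663), an alternative chosen after seeing the data that leaves Thy-1+CD24medCD49fhigh cells with 1 array, at 1.02.

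Sox10 overlapped between the layers, with luminal arrays from -1.11 to 0.34 (median -0.22), against -2.79 to 1.44 in the basal arrays (median 0.43). Thy-1+CD24medCD49fhigh replicate 1, at -2.79, lay 2.89 below any other basal array. That array also had the lowest median of all rows, a Schwann cell marker median of 1.64 and an endothelial one of 2.94, while replicate 3, with Sox10 at 0.10, had a Schwann cell median of 1.97. The part of these in the Sox10 value was not tested. The differences from the basal level were 0.13 in CD24medCD49f-/low cells (SE 0.63, 95% interval -1.18 to 1.45, limma adjusted p = 0.903) and -0.87 in CD24highCD49fmed cells (SE 0.52, 95% interval -1.96 to 0.22, limma adjusted p = 0.188). Without that array Sox10 was called lower in CD24highCD49fmed cells (-1.22, limma adjusted p = 0.00599). In CD24medCD49f-/low cells it turned to -0.21 without being called (limma adjusted p = 0.713).

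Counted together, 3 of the 5 genes were called in CD24medCD49f-/low cells, all higher, beside 8.16% of all rows called higher. In CD24highCD49fmed cells 4 of the 5 were called, 3 higher and 1 lower, beside 23% of all rows called higher and 14.2% called lower. With both luminal populations averaged, the differences from the basal level were 4.48 for Elf5, 3.93 for Kit, 2.78 for Foxi1, -1.40 for Tfap2c and -0.37 for Sox10. Elf5, Kit and Foxi1 were called higher, beside 27.7% of all rows, and Tfap2c lower, beside 17.4%. The 5 luminal arrays lay wholly above the 9 basal arrays for 3 of the 5 genes, beside 16.5% of all rows. An exact two-sided permutation test of 5 luminal against 9 basal arrays gave p = 0.000999 for Elf5, Kit and Foxi1, the smallest p this test can give. The same exact permutation test gave p = 0.00599 for Tfap2c and p = 0.456 for Sox10. The expression table keeps only probe sets with a 4-fold difference between arrays. That filter favours genes that separate the layers, so these p-values are not independent of it. The 5 genes were chosen with earlier results of these data known, a further limit on these p-values. The test also treats arrays of different sorted populations as interchangeable within each layer.

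**Figure D3:**
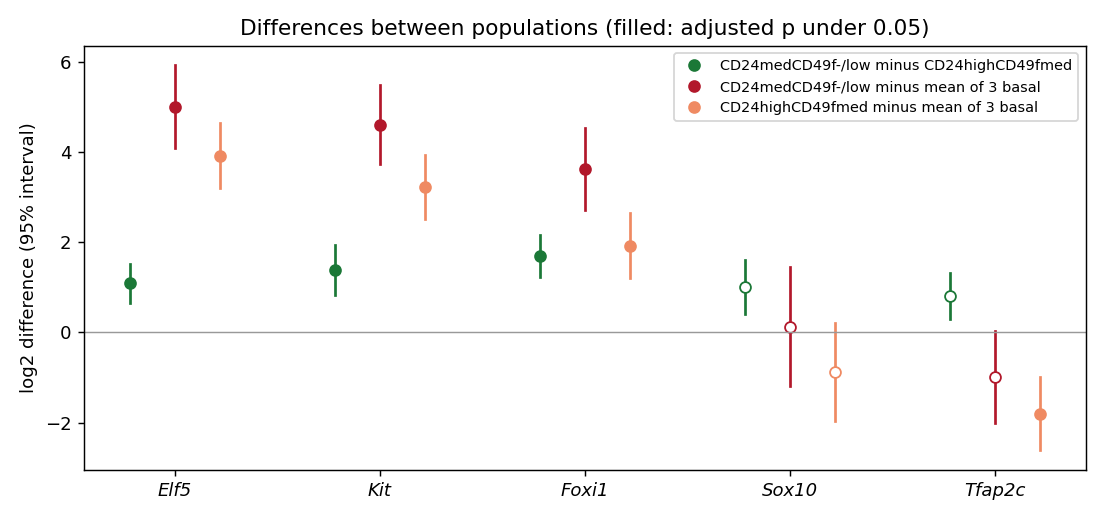
Log2 difference (y axis) of each gene (x axis) between CD24medCD49f-/low and CD24highCD49fmed cells, and between each luminal population and the mean of 3 basal populations. Bars are 95% intervals, and filled points have a limma adjusted p under 0.05. Elf5, Kit and Foxi1 were filled in all 3 comparisons, and Tfap2c in 1 of them, where it was lower.

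Among the basal populations no member was called. Elf5 averaged -1.47 in Thy-1+CD24medCD49fhigh, -1.34 in Thy-1-CD24medCD49fhigh and -1.87 in CD24medCD49fmed cells (SD 0.45, 0.58 and 0.07, n = 3 each). Kit averaged -1.09 in Thy-1+CD24medCD49fhigh, -1.51 in Thy-1-CD24medCD49fhigh and -1.46 in CD24medCD49fmed cells. Foxi1 averaged -0.71 in Thy-1+CD24medCD49fhigh, -1.02 in Thy-1-CD24medCD49fhigh and -1.06 in CD24medCD49fmed cells. Neighbouring means of Kit and of Foxi1 had overlapping arrays, as had Elf5 in both CD24medCD49fhigh populations. For Elf5 the lowest Thy-1+CD24medCD49fhigh array (-1.79) lay next to the highest CD24medCD49fmed array (-1.80). On each probe set alone the arrays of these populations overlapped. The difference of their means was 0.40 (limma adjusted p = 0.672). That difference was 0.90 on probe set 1419555_at and -0.10 on 1419556_at. Between the CD24medCD49fhigh populations with and without Thy-1 only 3 rows (0.0417%) were called. By limma none (0%) was called between CD24medCD49fmed cells and either of them. There 383 (Thy-1+) and 84 (Thy-1-) of 7190 rows had an unadjusted p under 0.05. Chance alone would put about 1 row in 20 under that level. With the replicate number as a block, 55 rows were called between Thy-1+CD24medCD49fhigh and CD24medCD49fmed cells.

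The widest basal differences were those of Sox10 and Tfap2c. Sox10 stood at -2.79, 0.54 and 0.10 in Thy-1+CD24medCD49fhigh arrays, against 0.53, 0.36 and 1.44 in Thy-1-CD24medCD49fhigh arrays, and at 0.34, 0.56 and 0.43 in CD24medCD49fmed arrays. Apart from the array at -2.79 the groups overlapped. The difference of Thy-1+CD24medCD49fhigh from Thy-1-CD24medCD49fhigh cells was -1.49 (SE 0.72, 95% interval -2.92 to -0.07, limma adjusted p = 0.755). Tfap2c stood at -0.60, 1.02 and -0.75 in Thy-1+CD24medCD49fhigh arrays, against 0.95, 1.03 and 1.04 in CD24medCD49fmed arrays, a difference of -1.12 (SE 0.58, limma adjusted p = 0.548). Thy-1+CD24medCD49fhigh replicate 2 was the array that reached the CD24medCD49fmed values, and without it the difference was -1.68 (limma adjusted p = 0.044). That left the 2 low-median arrays, with 856 rows called, 774 of them lower, and a median of -0.76 over all rows.

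Probe sets of 1 gene ran together over the 14 arrays, with Pearson r of 0.991 for Kit, 0.973 for Tfap2c and 0.957 for Elf5. The largest gap between probe sets in an array was 1.22 for Elf5, 0.65 for Kit and 0.62 for Tfap2c. For Elf5 in the basal arrays, 1419555_at averaged -1.66 (SD 0.84, n = 9) and 1419556_at averaged -1.46 (SD 0.25, n = 9), so the first was the more spread. The other probe sets were 1415900_a_at and 1452514_a_at for Kit, 1418147_at and 1448977_at for Tfap2c, 1451689_a_at for Sox10 and 1449458_at for Foxi1. Elf5 covered 5.55 log2 over all arrays, Kit 5.18, Foxi1 4.28 and Sox10 4.23, above the median row's 2.56, while Tfap2c covered 2.44.

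The genes nearest in pattern were taken as the 5 with the highest Pearson r over the 14 arrays, a description in which all points share the same 5 populations. Elf5 was nearest to Ltf, which encodes the milk protein lactoferrin, and Cd14, the endotoxin co-receptor gene (both r = 0.992). The ETS factor gene Ehf (0.991), the retinaldehyde dehydrogenase gene Aldh1a3 and the sodium-glucose transporter gene Slc5a1 (0.985 each) followed. Kit was nearest to Cd14 (0.991), Aldh1a3 (0.988), the G protein subunit gene Gna14 and Slc5a1 (0.986 each), with Elf5 itself as the fifth (0.985). Foxi1 was nearest to Gna14 (0.985), the netrin gene Ntn1 (0.983), the chloride channel gene Clic6 (0.978) and Aldh1a3 (0.974). Foxi1 correlated at 0.970 with Kit and 0.959 with Elf5.

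Tfap2c was nearest to Gprc5b, an orphan receptor gene (0.990), Ank, a pyrophosphate transporter gene (0.978), Cdr2 (0.974), the lactate dehydrogenase gene Ldhb and the receptor kinase gene Ror1 (0.968 each). Gprc5b averaged -0.39 in CD24medCD49f-/low cells, -1.32 in CD24highCD49fmed cells and 1.12 in CD24medCD49fmed cells. Sox10 had weaker matches, led by Igsf3 (0.905), Kctd1 (0.895), Rrs1 (0.890), the drug exporter gene Abcc1 (0.889) and Fam98b (0.882). Without Thy-1+CD24medCD49fhigh replicate 1 these were 0.820 for Igsf3 and 0.661 to 0.687 for the other 4 genes, over 13 arrays. Tfap2c ran opposite to Elf5 (r = -0.735), and Sox10 showed little relation to it (-0.14).

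Of 27 genes listed for luminal progenitor and alveolar cells, among them the 5 genes followed here, 21 were measured. Between CD24medCD49f-/low and CD24highCD49fmed cells their median was 0.82, beside -0.14 over all rows. In that comparison 7 were called higher and none lower, beside 2.57% and 3.02% of all rows. Besides Elf5, Kit and Foxi1 these were Lif, a cytokine gene (1.79, SE 0.24, limma adjusted p = 0.0117), Aldh1a3 (1.62, SE 0.20, 0.0113), Ltf (1.10, SE 0.17, 0.0175) and Cd14 (1.05, SE 0.23, 0.0397). Stat5a, a mediator of prolactin signals, was measured at -0.18 (SE 0.21) and not called. Relative to the basal level, with both luminal populations averaged, 14 of the 21 were called higher and 1 (Tfap2c) lower. Beside them 27.7% of all rows were called higher and 17.4% lower. The median of the 21 was 2.21, beside 0.33 over all rows. Ltf (5.05), Elf5 (4.48), the casein gene Csn3 (4.06) and Kit (3.93) rose most.

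Milk and alveolar secretion genes were called higher in CD24medCD49f-/low cells in 5 of 12 measured cases and lower in none, with a median of 0.81, beside 2.57% of all rows called higher and a median of -0.14. They were Btn1a1 (1.90) and Xdh (1.49), which act in milk fat secretion, the mucin gene Muc1 (1.63), Lalba (1.30), a subunit of lactose synthase, and Mfge8 (1.24). Their limma adjusted p ran from 0.0129 to 0.0375. The beta-casein gene Csn2 was measured at -0.08 (SE 0.54).

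Hormone-sensing luminal genes lay on the other side. None of 14 measured was called higher in CD24medCD49f-/low cells and 3 were called lower, with a median of -0.78. These were the prostaglandin receptor gene Ptger3 (-3.02, SE 0.25, limma adjusted p = 0.00728), Sytl2 (-1.33, SE 0.24, 0.0254) and the forkhead factor gene Foxa1 (-1.14, SE 0.23, 0.0311). Of 19 measured cell cycle genes, 16 were called lower, with a median of -1.65 (Pbk -2.99, Mki67 -2.80). Over all rows 3.02% were called lower and 37.2% had a value above 0, as had none of these 14 and 19 genes.

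**Figure D4:**
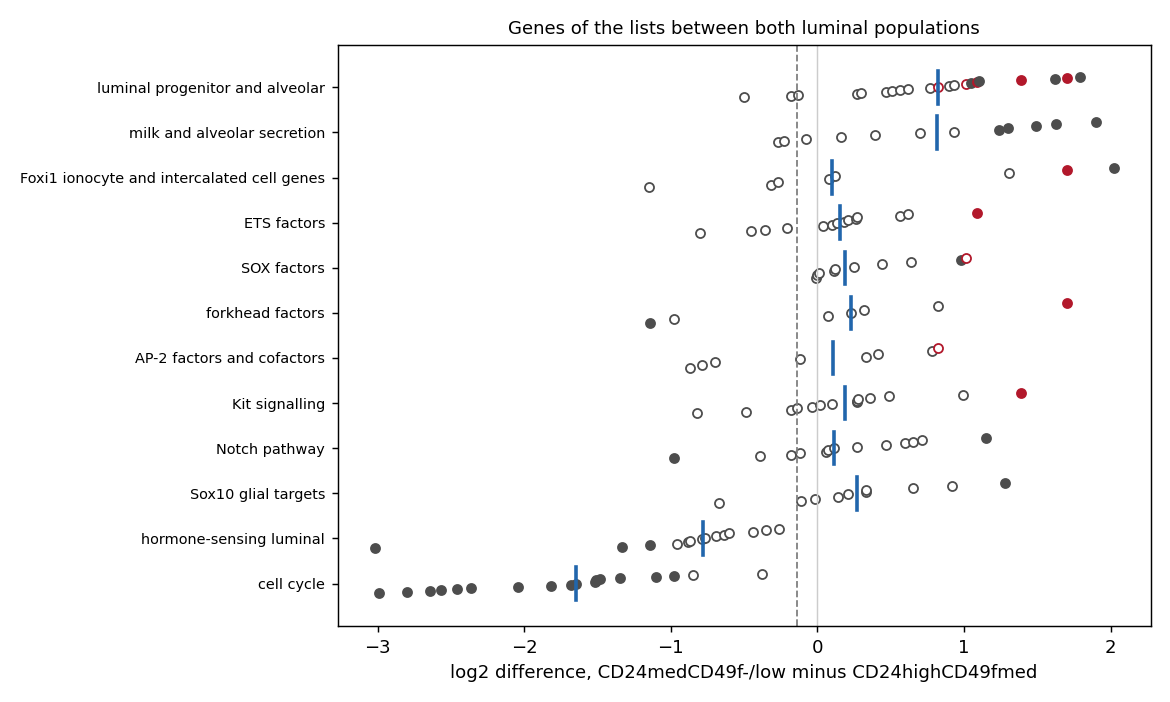
Log2 difference of CD24medCD49f-/low minus CD24highCD49fmed cells (x axis) for the genes of each list (y axis). Filled points have a limma adjusted p under 0.05, red points are Elf5, Kit, Foxi1, Sox10 and Tfap2c, bars are list medians and the dashed line is the median of all rows (-0.14). Lists of progenitor and milk genes had medians of 0.82 and 0.81, and the hormone-sensing list one of -0.78.

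Relatives of each gene were described from lists by family. Their counts stand beside 2.57% of all rows called higher and 3.02% lower between the luminal populations, and 27.7% higher and 17.4% lower in luminal cells against the basal level. Of 14 measured ETS factors, Elf5 was the only one called between the luminal populations. Ehf, next to Elf5 on chromosome 2, was measured at 0.62 (SE 0.27, limma adjusted p = 0.19) and Elf3 at 0.56 (SE 0.35, 0.327). Both were higher in luminal cells than the basal level, Ehf by 3.67 (SE 0.29, limma adjusted p = 9.15e-09) and Elf3 by 2.18 (SE 0.32, 1.58e-05), and 6 of 14 ETS factors were called higher and 3 lower there, beside 27.7% and 17.4% of all rows. Cat, on the other side of Elf5, was measured at -0.09 (SE 0.31) against the basal level.

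Of 14 measured genes of Kit signalling only Kit was called between the luminal populations. Kitl, which encodes the ligand of Kit, averaged -0.88 (SD 0.04, n = 2) in CD24medCD49f-/low cells and -0.74 (SD 0.04, n = 3) in CD24highCD49fmed cells. In luminal cells it was lower than the basal level by -1.26 on the log2 scale (SE 0.39, limma adjusted p = 0.0125), in the opposite direction to its receptor. The adaptor gene Gab2 (1.68) and Stat5a (1.62) were higher, and the inhibitor gene Spry1 (-1.76) and the kinase gene Fyn (-1.45) were lower, with 4 of 14 called higher and 5 lower. The share of all rows was 27.7% higher and 17.4% lower, so the higher count was near the background. Pdgfra and Kdr, receptor genes that flank Kit on chromosome 5, were lower in luminal cells by limma (-0.74, adjusted p = 0.0395, and -1.26, adjusted p = 0.044). Pdgfra is also a fibroblast marker and Kdr an endothelial one. In the same comparison 5 of 7 measured fibroblast and 7 of 10 measured endothelial markers were called lower in luminal cells, and their part in these values was not tested.

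Foxi1 was set beside 7 other measured genes of a list of ionocyte and intercalated cell genes. Atp6v1b1, a proton pump subunit gene that Foxi1 activates in the kidney, averaged 3.38 (SD 0.50, n = 2) in CD24medCD49f-/low cells and 1.36 (SD 0.24, n = 3) in CD24highCD49fmed cells. It was higher by 2.02 (SE 0.25, limma adjusted p = 0.0116) between them and by 3.58 (SE 0.26, limma adjusted p = 2.60e-09) in luminal cells over the basal level. The carbonic anhydrase gene Car2 was measured at 1.31 between the luminal populations (SE 0.49, limma adjusted p = 0.137) and Hepacam2 at -1.15 (SE 0.42, 0.131). Atp6v1b1 and Foxi1 were thus the 2 of 8 called there, and 5 of 8 were called higher and 1 (Coch, -1.52) lower against the basal level. Of 7 measured forkhead factors, Foxi1 was called higher and Foxa1 lower between the luminal populations, and Foxc1 was measured at 0.82 (SE 0.31, limma adjusted p = 0.141).

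Of 10 measured SOX factors, 1 was called between the luminal populations, Sox6 (0.98, SE 0.22, limma adjusted p = 0.0422). Sox9, a luminal progenitor factor, was measured at 0.44 (SE 0.19, limma adjusted p = 0.179) and was higher in luminal cells than the basal level (1.78, SE 0.26, limma adjusted p = 1.82e-05). Sox8, the close relative of Sox10, was lower there (-1.80, SE 0.28, limma adjusted p = 4.17e-05). Of 10 measured genes that Sox10 controls in glia, 9 were lower and 1 higher in luminal cells, with a median of -2.02, beside 17.4% of all rows lower and 27.7% higher. Several of them also mark Schwann cells, and all 6 measured Schwann cell markers were lower in luminal cells (median -2.61), whose part in the list's values was not tested. The lower ones included the myelin gene Pmp22 (-3.77) and its regulator Egr2 (-2.78), and the higher one was the receptor gene Erbb3 (2.41). Pmp22 was higher in CD24medCD49f-/low than in CD24highCD49fmed cells (1.28, SE 0.28, limma adjusted p = 0.0405).

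Of 8 measured AP-2 factors and cofactors none was called between the luminal populations by limma. Tfap2b was measured at -0.79 (SE 0.20, limma adjusted p = 0.0562), Tfap2a at -0.12 (SE 0.22, 0.76) and Tfap2e at 0.41 (SE 0.21, 0.245). Against the basal level, Tfap2b was higher in luminal cells (0.80, SE 0.28, limma adjusted p = 0.0246) and Tfap2c was lower (-1.40, SE 0.32, 0.00133). The cofactor gene Cited1 was higher (3.35) and the AP-2 inhibitor gene Kctd15 was lower (-1.46).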

How the data were processed

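RNA of sorted mammary populations was hybridised to 14 Affymetrix mouse genome arrays. The deposited values are log2. The paper names RMA, run by the authors in MIDAS, and the submitters' notes name both RMA and GCRMA, so which made this table is not settled. In Cluster 3.0 the authors then kept probe sets with enough signal and a 4-fold difference, and centred every probe set on its mean. Each probe set spanned at least 2.0 log2 over the arrays. Because values are centred, signal over background is not known and dim probe sets could not be filtered. The population labelled CD24medCD49fmed is called CD24lowCD49fmed in the paper.

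Probe sets with 1 symbol (8499) were averaged per gene (6044). Probe sets with several symbols (199) or none (947) stayed separate, giving 7190 rows. Two-sided moderated tests were run in limma 3.58.1 (R 4.3.3; lmFit and eBayes) on the arrays of the populations compared, with Benjamini-Hochberg adjustment over all rows and a threshold of 0.05. Single genes were tested by exact permutation in scipy 1.17.1 with Python 3.11.15. The scripts were tested on simulated data. Lists are described by counts and medians, without set tests. The authors' rank products were not used.

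The members and lists were chosen with earlier results of these data known. Genes named are the members, the 5 nearest in pattern to each, up to 4 called genes each way per list and comparison, and close relatives whatever their values. Outside this rule, Mfge8, Csn2, Mitf, values of Stat5a, Car2 and Hepacam2 that were not called, and the chromosomal neighbours Cat, Pdgfra and Kdr were named after their values were seen. One gene near Foxi1 in pattern is not reported here.

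No label states that arrays with the same replicate number are paired. Deviations from the group mean in same-numbered arrays correlated at 0.388, 0.391 and 0.386 between CD24medCD49fmed and Thy-1+CD24medCD49fhigh cells. They correlated at 0.374, 0.328 and 0.558 between CD24medCD49fmed and Thy-1-CD24medCD49fhigh cells. Between both CD24medCD49fhigh populations the values were -0.002, -0.16 and 0.245. Replicate numbers were not taken as pairs in the main fits. Alternatives were all arrays in 1 fit, a replicate block, array weights, single probe sets, median centring, a minimum log2 difference of 1, quantile normalization, robust eBayes and leaving out each array.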

Additional observations from a re-analysis of the deposited data

Results flagged for a closer look

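Sox10 in Thy-1+CD24medCD49fhigh replicate 1 (-2.79) lay 2.89 below the next of the 9 basal arrays, 0.683 of their whole range. Chance alone would mark about 1 in 20 such groups, and 10 groups of luminal or basal arrays were looked at.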

How the results depend on the processing

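Elf5, Kit and Foxi1 stayed called higher in each luminal population than the basal level, and in both averaged, under every alternative run. Between CD24medCD49f-/low and CD24highCD49fmed cells all 5 genes kept their direction, but calls did not hold. Called rows (402 of 7190) became 4 with all arrays in 1 fit (0 of the 5 genes) and 727 with array weights. They were 0 to 662 when single arrays were left out (0 to 4 genes). With single probe sets 608 of 9645 were called. Quantile normalization lost Elf5 (0.91, limma adjusted p = 0.0939) and Kit (1.23, 0.0786) and called Sox10 (0.99, 0.0436). Of called rows, 46% were higher, against 69.6% after median centring and 64.1% after quantile normalization. The median of all rows moved from -0.14 to 0.02 and -0.01, and its part in this change was not tested.

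For CD24medCD49f-/low against basal (1255 rows), array weights gave 3361, single omissions 303 to 1756, and leaving out both low-median arrays, an alternative chosen after seeing the data, 2126. Sox10 (0.13) became -0.04 with array weights, -0.05 after median centring, -0.11 after quantile normalization, -0.29 without both low-median arrays and -0.21 to 0.34 over single omissions. For CD24highCD49fmed against basal (2672 rows), array weights gave 4457 and single omissions 1588 to 3759. For both luminal populations (3242 rows) omissions gave 2124 to 4270, and 61.4% of calls were higher, against 47.7% after median centring.

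The CD24medCD49fhigh populations, Thy-1+ against Thy-1- (3 rows), gave 0 with all arrays, single probe sets, median centring or quantile normalization, 199 with array weights, 5 with robust eBayes and 0 to 10 over omissions. Elf5 there (-0.13) became 0.23, 0.28 and 0.47 with array weights, median centring and quantile normalization, and -0.47 to 0.06 over omissions. Thy-1+CD24medCD49fhigh against CD24medCD49fmed cells (0 rows) gave 4 with array weights and 0 to 856 over omissions (0 to 1 gene). Thy-1-CD24medCD49fhigh against CD24medCD49fmed cells gave 0 to 1 row. Foxi1 there (0.03) became -0.24 with array weights and -0.14 to 0.27 over omissions, and Kit (-0.04) 0.01 after median centring, 0.31 after quantile normalization and -0.18 to 0.14 over omissions. The causes were not tested.

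With the replicate number as a block, 829 rows were called between the luminal populations, Sox10 among them (0.96, limma adjusted p = 0.0135). The block gave 5 rows between the CD24medCD49fhigh populations and 55 between Thy-1+CD24medCD49fhigh and CD24medCD49fmed cells. No other call of the 5 genes changed with the block. The 2 arrays of CD24medCD49f-/low cells limit every comparison with them.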
